A study of Saccharomyces cerevisiae with 268 samples.

Results

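Cytosolic ribosomal proteins build the large (60S-type) and small (40S-type) subunits of the ribosome that translates nuclear messages, and this account follows their genes across a panel of yeast gene deletions. Members were all genes of the table whose standard symbol begins with RPL or RPS or is one of the acidic stalk genes RPP0, RPP1A, RPP1B, RPP2A and RPP2B. The similarly spelled RPP1, a subunit gene of RNase P, was left out. Of the 6419 features the rule took 81 genes for the large subunit, among them the 5 stalk genes, and 56 for the small subunit. Every one of them had a value in at least 80% of the columns and was tested, and 90.5% had a value in every column.

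The series profiled Saccharomyces cerevisiae strains that each lacked 1 transcription factor or related regulator. Each column compared RNA of a deletion strain (Cy5) with wild type RNA (Cy3), both from mid-log growth, and each deletion had 1 column. The values are called scores here, because no source at hand states their unit or log base, and by the dyes in the labels a score below 0 stands for less RNA without the deleted gene. The strain background, the medium, the number of arrays behind a column and the way in which strains for essential genes such as RAP1, HSF1, ABF1, MCM1 and REB1 were obtained are not stated in the sources at hand, so the precision of a single score is unknown.

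For tests, strains were gathered into 6 sets by the complex or role of the deleted gene. The sets were the SWI/SNF remodeller (SWI3, SNF5, SNF2, SNF6 and SNF11), the SAGA coactivator (ADA2, NGG1, SPT3, SPT20 and HFI1), the Mediator tail (SIN4, GAL11, PGD1 and NUT1), the Mediator kinase module (SSN3, SRB8 and SSN2), the Rpd3L deacetylase (RPD3, SIN3, UME1, PHO23 and SDS3) and the repressors TOD6, STB3 and DOT6. The strains outside these sets were the comparison for every set, so the set results share their controls. Strains of a set lack different genes and are not repeats of 1 genotype.

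In growing yeast, ribosomal protein messages are among the most heavily transcribed by RNA polymerase II. Rap1 binds the promoters of most of these genes and brings in the coactivators Fhl1 and Ifh1, Sfp1 activates them in response to nutrients and the TOR kinase, and Stb3, Tod6 and Dot6 act as repressors of ribosomal protein or ribosome biogenesis genes. Most of the proteins are encoded by a pair of gene copies named A and B, left by an ancient genome duplication, and an unusually large share of the genes carry an intron.

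Some columns stood apart from the rest in marks other than the member median. In 42 columns genes that mark mating type or strain markers (MET17, STE3 and the alpha-factor genes, or the a-specific genes) were far low. In 11 columns 1 whole chromosome was raised, 6 columns were written with 6 significant digits (RAP1, GCR1, REB1, HSF1, ABF1 and MCM1), and in 14 columns the gene named as deleted ranked in the highest 20% of its own scores over all columns. These 14, which include SPT20, NGG1, SPT3, SSN3, RPD3, ABF1 and MCM1, go against their labels on that gene and are called columns labelled with that name. The deleted gene was in the lowest 5% of its own scores in 60.5% of the 263 columns where it had a value.

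The members moved as a block. The median score of the members in a column ran from -6.12 to 2.59, with a median over all columns of -0.50 and an SD of 1.19. The median of all tested genes had an SD of 0.117 over columns, which any centring of the deposited values would hold down. The member median was below -1 in 59 columns, above 1 in 21 and between in the other 70.1%. Within a column the members had a median interquartile range of 0.812 (0.483 to 2.16). Across all columns the SD of a single member had a median of 1.29, against 0.718 for all tested genes.

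**Figure D1:**
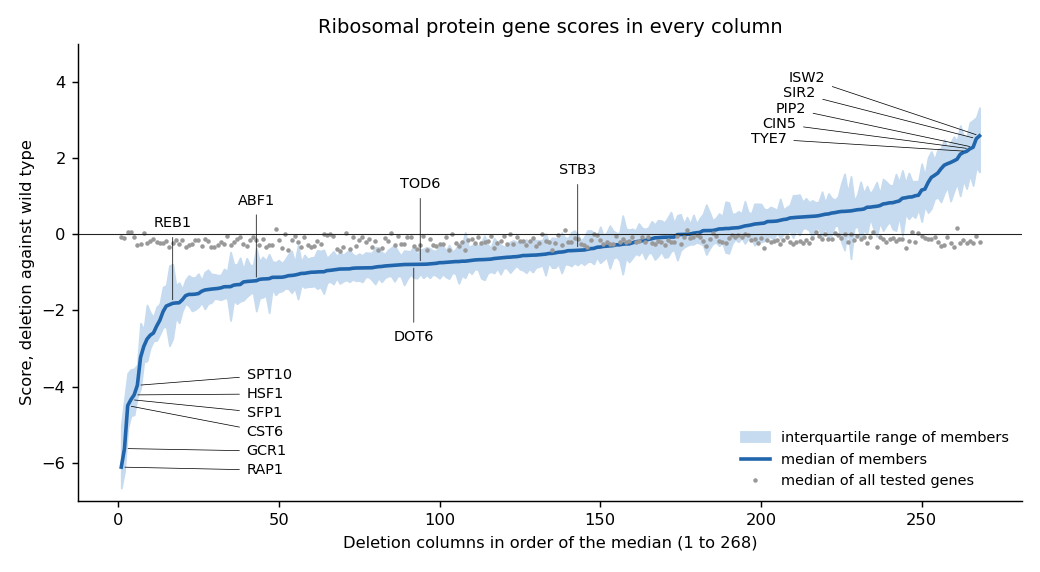
Median score of the ribosomal protein genes in each deletion column, ordered from lowest to highest (x axis, rank; y axis, score). The shaded band spans the interquartile range of members and grey points give the median of all 5615 tested genes; 6 columns on the left lie below -3.9 while the grey points stay near 0.

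The lowest columns were those of activators that are known to work on these promoters, together with other broad regulators. The member median was -6.12 in the RAP1 column, where 98.5% of the members with a value lay below their own median over columns. It was -5.63 in the GCR1 column (97.7% low), which lacks the activator of glycolysis genes that works beside Rap1, and -4.34 in the SFP1 column, where every member was low. SFP1 itself stood at -6.77 in its column, its lowest score of all. The other 3 of the 6 lowest were CST6, a bZIP factor, at -4.50, HSF1, the heat shock factor, at -4.22, and SPT10, a histone gene activator, at -3.97. In the CST6 and SPT10 columns the deleted gene was at -0.44 and -0.04, which does not show its loss. HSF1 was at -0.84 in its own column, outside the lowest 5% of its scores. CST6 and HSF1 are among the 42 columns with far low marker genes. The part these played in the member medians was not tested. RAP1, GCR1 and HSF1 are also among the 6 columns written with 6 significant digits, and CST6, SFP1 and SPT10 are not. Of the columns so written, 5 were among the 59 with the lowest member medians, and the column labelled MCM1 stood at 0.60. The part of this separate format in the medians was not tested either. With quantile normalization 4 of the 6 lowest columns stayed among the 6 lowest.

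Other regulators that bind a subset of these promoters gave smaller medians with a wider spread. In the column of REB1, a general regulatory factor, the median was -1.81, with members from RPS26B at -4.76 to RPL39 at 0.87. There 86.3% of members were below their own median. REB1 itself was at -1.09, outside the lowest 5% of its own scores. In the column labelled ABF1, the median was -1.22 with 72.5% of members low. RPP0 at -3.70 and RPL2B at -3.47 were lowest there, and RPL3 (-2.29), RPL4A (-1.94) and RPL4B (-3.08), a trio known as Abf1-regulated members, lay on the low side of it. At the other end of that column RPS6A stood at 2.36, RPL32 at 2.30 and RPS8A at 2.11. The latter pair lie on chromosome II, which was raised as a whole in that column. The repressor strains were close to the middle of the panel, with medians of -0.42 in STB3, -0.79 in TOD6 and -0.79 in DOT6. STB3 stood at -6.17 in its own column and TOD6 at -1.53, whereas DOT6 was at 0.23 in the DOT6 column.

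The lowest and the least affected members differed between columns. In the RAP1 column RPS12 (-7.39), RPS18A (-7.38) and RPL29 (-7.38) were lowest, and RPS16A (0.31), RPS23B (0.08) and RPS28A (-0.29) were highest. In the GCR1 column the copies RPL2A (-7.08) and RPL2B (-6.99), which encode a core protein near the peptidyl transferase centre, and RPL9B (-6.97) were lowest, while RPS16A (0.60), RPS3 (0.38) and RPS28A (0.29) stood above 0. RPS3, a single-copy gene for a protein of the mRNA entry site, also stood above the column median in RAP1 (-0.85) and HSF1 (-1.37), and its median over the 6 lowest columns was -1.75. In the CST6 column RPL4A (-6.24), RPL8B (-6.20) and RPL8A (-6.09) were lowest, and RPL39 (0.93), RPS23B (0.15) and RPS24A (0.07) highest.

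In the SFP1 column RPL4A (-6.13), RPL4B (-6.01) and RPL22B (-5.93) were lowest, and the least low were RPL37B (-0.39), RPL11A (-0.66) and RPS24A (-0.92). No member was above 0 in that column. In the HSF1 column RPP2A (-5.73), RPS12 (-5.63) and RPS8B (-5.60) were lowest, with RPL39 (1.26), RPL7A (0.88) and RPS10B (0.59) above 0. In the SPT10 column RPS7B (-4.77), RPP0 (-4.69) and RPL8B (-4.68) were lowest, with RPS16A (1.03), RPL37B (0.63) and RPL39 (0.15) above 0. RPS16A and RPL39 were each among the 3 highest members in 3 of these 6 columns, and RPS23B, RPS24A, RPS28A and RPL37B in 2 each.

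The highest columns belonged to regulators with no single shared function. ISW2, the ATPase of a nucleosome-spacing remodeller, led at 2.59 and SIR2, the silencing deacetylase, followed at 2.51. PIP2, an activator of fatty acid oxidation genes, was at 2.29, CIN5, a bZIP stress factor, at 2.25 and TYE7, an activator of glycolysis genes, at 2.18. Only 2, 2, 6, 3 and 5 members, in that order, lay below their own median in these columns. With quantile normalization only 2 of these 5 columns stayed among the 5 highest. The deleted gene was in the lowest 5% of its own scores in 16 of the 21 columns above 1 and in 36 of the 59 below -1. Far low marker genes were found in 10 of the 21 high columns, 13 of the 59 low ones and 19 of those between. Of the 5 highest columns ISW2, SIR2, CIN5 and TYE7 had them and PIP2 did not, and their part in the medians was not tested.

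The RPL41 copies and RPL29 recurred at the top of the high columns. In ISW2 the highest members were RPL41B (4.45) and RPL41A (4.43), which encode the smallest protein of the ribosome, and RPL29 (4.32). In SIR2 they were RPL41B (4.30), RPS29A (4.02) and RPS30B (3.89), in PIP2 RPL35B (4.23), RPL41B (4.16) and RPS26A (4.08), in CIN5 RPL41A (4.24), RPL37A (3.74) and RPL29 (3.57), and in TYE7 RPL27B (4.09), RPL41A (4.01) and RPS25B (3.96). Over all 21 high columns RPL41B and RPL29, with gene spans of 78 and 180 bp in the R64 gene table, had medians of 2.97 and 2.92, and the similarly short RPS29A had 2.93.

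The RPL4 copies were the lowest members in 4 of these 5 columns. RPL4A was at -1.73 in ISW2, -1.60 in PIP2, -1.29 in CIN5 and -2.17 in TYE7, and RPL4B at -1.59, -1.75, -1.03 and -1.35. They encode a large subunit protein that lines the exit tunnel. Next to them in ISW2 and PIP2 were RPP0 (-0.55 and -1.24), the stalk base, and RPL3 (-0.06 and -0.50), a protein close to the catalytic centre. In SIR2 the lowest were RPS16A (-0.41), RPL11A (-0.15) and RPS23B (0.15), in CIN5 RPL11A (-0.07) followed the RPL4 copies, and in TYE7 RPS8B (-0.83) did. RPL4A and RPL4B were below 0 in 16 of the 21 high columns each, and RPL3 and RPP0 in 15 each, a group picked out here after its values were seen. In the 6 lowest columns these 4 genes were among the lowest members, with medians of -5.53, -5.89, -5.75 and -5.51.

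**Figure D2:**
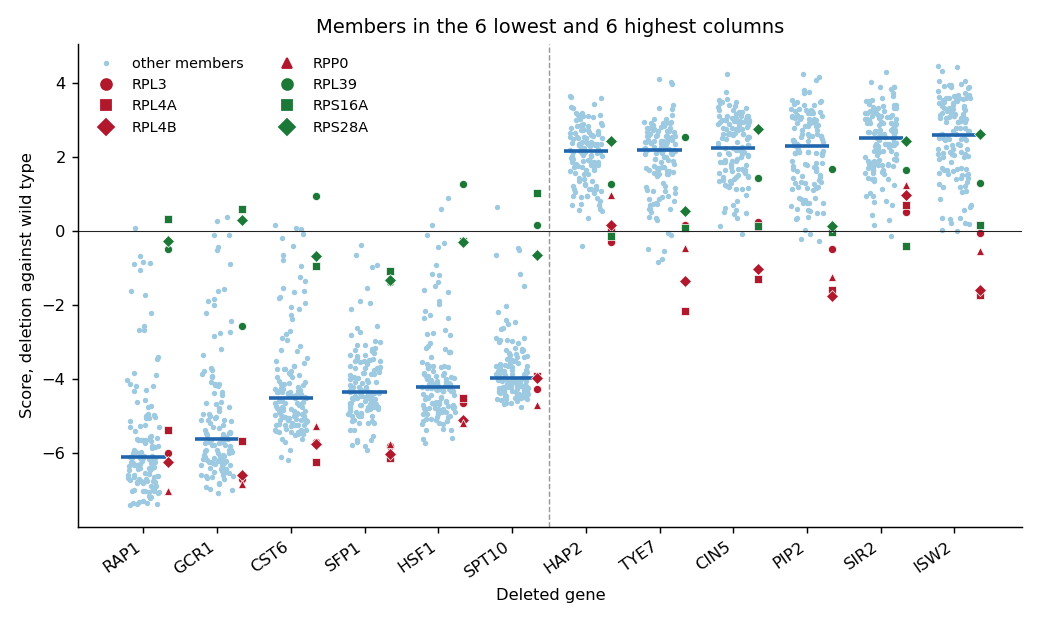
Score of every ribosomal protein gene (points, y axis) in the 6 lowest and the 6 highest columns (x axis, deleted gene), with the column median as a bar. Red symbols mark RPL3, RPL4A, RPL4B and RPP0, which fall with the rest on the left but lie at the lower edge on the right, and green symbols mark RPL39, RPS16A and RPS28A, of which RPS16A lies near the upper edge in RAP1, GCR1 and SPT10.

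Gene length moved with the scores of unrelated genes in the same columns. The Spearman correlation of score with R64 gene span, over genes that are no members, was negative in all 21 high columns, between -0.57 and -0.13 with a median of -0.41. In the 59 low columns its median was 0.13 (-0.16 to 0.34). Across all columns, which measure the same genes, this correlation and the member median had a Pearson r of -0.65 and a Spearman rho of -0.73, and r was -0.69 without the 2 farthest columns. Members are short, with a median span of 771 bp against 1272 bp for all tested genes.

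Among the members themselves the median score in the high columns had a Spearman correlation of -0.38 with gene span, and that in the low columns of 0.018. With the length trend of each column subtracted, an alternative added after the data were seen, 17 of the 21 high columns still had a member median above 1, and ISW2 was at 2.12. Of the 59 low columns 40 stayed below -1, and RAP1 was at -5.93. The member medians with and without the trend had a Pearson r of 0.99 over all columns. What produced the length trend was not tested.

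**Figure D3:**
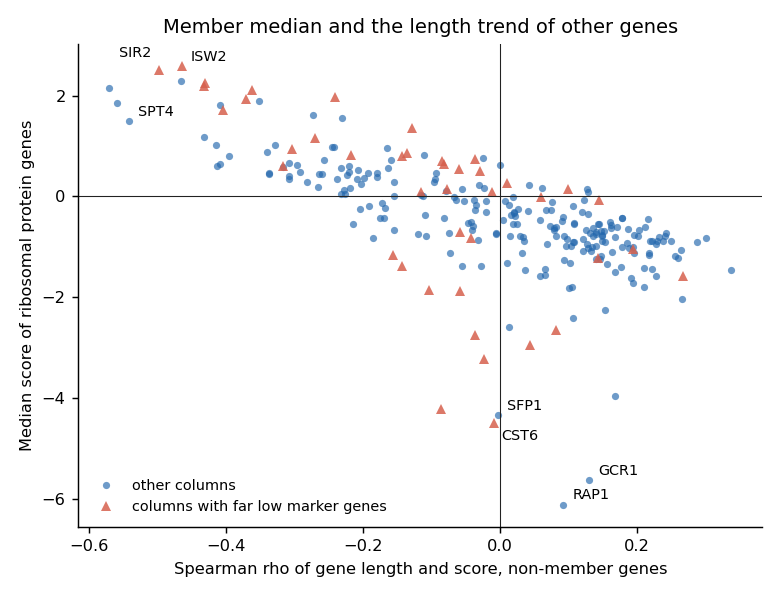
Median score of the ribosomal protein genes (y axis) against the Spearman correlation of score with gene length over all other tested genes (x axis), 1 point per deletion column; triangles mark the 42 columns with far low marker genes. Every column with a member median above 1 lies left of 0, whereas RAP1, GCR1, CST6 and SFP1 lie far below the rest with a length correlation between -0.008 and 0.13.

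The large and small subunit genes moved together. The median over the 81 large subunit genes minus that over the 56 small subunit genes had a median of -0.007 over columns with an SD of 0.167, and the 2 medians had a Pearson r of 0.99 and a Spearman rho of 0.99 over all columns (r 0.99 without the 2 farthest). The difference exceeded 0.5 in size in 4 columns. Large subunit genes were lower by most in SWI3 (-0.66), the column labelled SPT20 (-0.62) and SNF5 (-0.53), and higher by most in SIN4 (0.86). With means in place of medians the differences were -0.33 in SWI3, -0.31 in SNF5 and 0.20 in SIN4, so the size of the difference depended on the summary used.

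SIN4 had the widest spread of members of any column, with an interquartile range of 2.16. RPL4A was at -4.87 there and RPL43A at 3.76. SIN4 encodes a Mediator tail subunit, and its own score in the column was 0.03.

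The stalk genes, whose proteins recruit elongation factors to the ribosome, were not alike in the high columns. RPP0 had a median of -0.36 over the 21 high columns, and RPP1A, RPP1B, RPP2A and RPP2B had 2.71, 2.21, 1.81 and 1.90. In the 6 lowest columns all 5 were low, at -5.51, -4.44, -4.20, -5.50 and -3.97 in the same order. RPS31 and RPL40A, which encode ribosomal proteins fused to ubiquitin, followed the block, with 2.24 and 2.54 in the high columns and -4.97 and -4.56 in the 6 lowest. RPL30, whose protein represses the splicing of its own transcript, followed it too (2.38 and -5.11). RPS14B, also repressed by its own product, moved less, with 0.25 and -2.09.

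A few members stood outside the block. The mean correlation of a member with the other members, over columns centred on their median, had a median of 0.75 and reached 0.81 for RPL26B. It was -0.03 for RPS16A, 0.09 for RPL11A, 0.15 for RPS23B, 0.25 for RPL39 and 0.39 for RPS24A. RPL11A (0.62), RPS24A (0.72) and RPL39 (0.73) also had the smallest SD over columns, near the 0.718 of all tested genes, whereas RPS29A (1.70), RPL29 (1.66) and RPL37A (1.60) had the largest.

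Missing values gathered on the same genes. The 8 members with over 3 missing values had a median mean correlation of 0.43, against 0.76 for the rest, and 7 of them were among the 12 members with the lowest mean correlation. RPS16A lacked 25 values, RPL11A 22 and RPS23B 14. RPL39, a single-copy gene for a small tunnel protein, lacked none. Its scores over all columns ran from -2.58 in GCR1, over a median of 0.27, to 4.73 in the column labelled MCM1. Whether the signal of these features came from their own transcript was not tested.

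Gene copies were mostly alike. There are 59 pairs, and 19 members are single-copy. Over columns centred on their median the 2 copies of a pair had a median Pearson r of 0.89, above 0.9 in 26 pairs. The median over all combinations of a large with a small subunit gene was 0.77. The most alike were RPL33 (0.95), RPS19 (0.95), RPL26 (0.95), RPL42 (0.95) and RPL1 (0.94). Even so, a copy was the single most similar member for only 29 of the paired members (24.6%), and it was among the 5 most similar for 54 (45.8%). Copies can be nearly identical in sequence, which was not compared here, and how far 1 feature also measures its partner was not tested.

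In 5 pairs r was below 0.5: RPS16 (-0.01), RPL11 (0.06), RPS23 (0.21), RPS24 (0.44) and RPL37 (0.47). RPS16 encodes a small subunit protein of the head, RPL11 a protein of the central protuberance and RPS23 a protein of the decoding centre. In RPS16 and RPL11 the B copy followed the block and the A copy did not. RPS16B had a median of 1.78 in the high and -4.57 in the 6 lowest columns, against -0.15 and 0.02 for RPS16A. RPL11B had 1.76 and -4.40, against 0.31 and -0.60 for RPL11A.

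Each pair was then taken in the column where its copies lay farthest from their typical distance. For the 5 pairs with the largest such distance that column was among the 6 with the lowest medians. RPS23A was at -6.39 and RPS23B at 0.08 in RAP1. RPS28A was at 0.29 and RPS28B at -6.33 in GCR1, and RPS16A at 1.03 and RPS16B at -4.15 in SPT10. Among copies with a full set of values, RPL7A stood at 0.88 and RPL7B at -3.66 in HSF1. In RAP1, RPS30A was at -6.10 and RPS30B at -0.69. RPL7 and RPS30 were otherwise fairly alike, with r of 0.73 and 0.79.

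**Figure D4:**
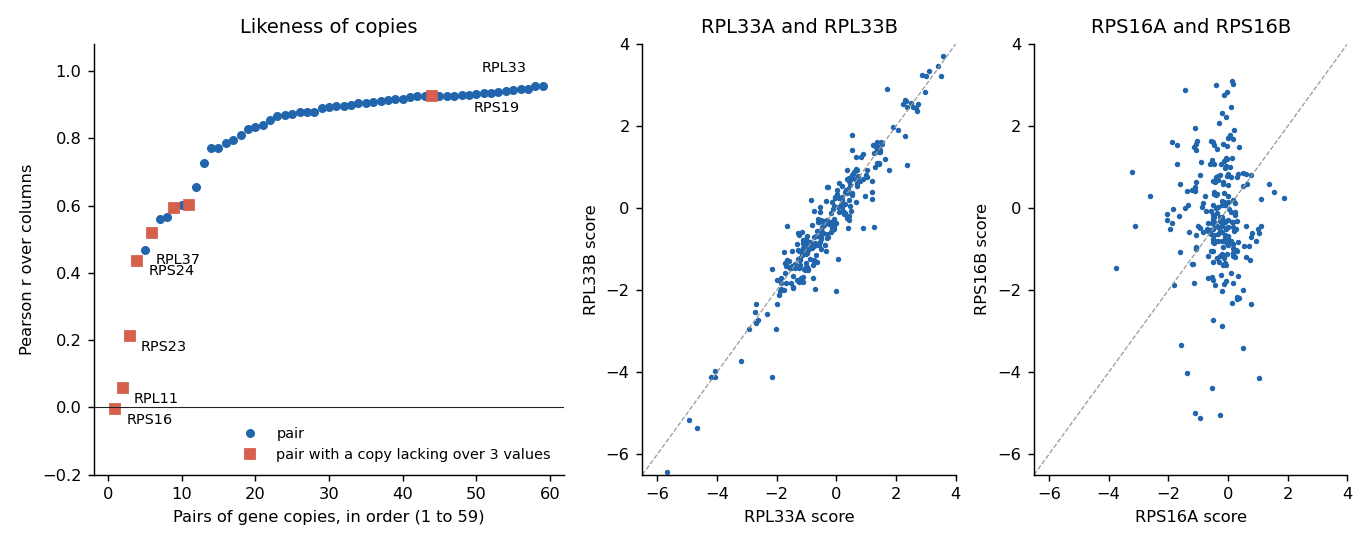
Pearson r over columns of the 59 pairs of gene copies in rising order (left; squares mark pairs with a copy that lacks over 3 values), and the scores of the copies in every column for RPL33 (middle) and RPS16 (right), with the line of equal scores dashed. RPL33A and RPL33B follow the line (r 0.95), while RPS16A stays near 0 as RPS16B varies (r -0.01).

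The table also held intron features of 11 members, which report unspliced transcript or the excised intron. Their correlation with the gene itself over columns was weak, between -0.13 and 0.61 with a median of 0.09, and was largest for RPS9A (0.61) and RPL28 (0.39). In the RAP1 column the 11 introns ran from -3.02 for RPL28 to 2.58 for RPS27B, with a median of -0.10. RPL19A was at -5.66 there and its intron at 1.81, and RPS11B at -6.12 and its intron at 0.03. In the SFP1 column all 11 introns were below 0, with a median of -0.83 and the lowest at -3.71 for RPS9A. In the column labelled MCM1 the introns of RPL28 (6.63), RPS9A (4.61) and RPS13 (4.08) had their highest scores.

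Deletion of the neighbouring gene had little visible bearing on members. In 13 cases a member lies next to a gene deleted in the panel. In 12 of them the member's score relative to its column median was within 2 SD of its usual value. RPS11B was at -4.23 in the column of its neighbour REB1, which was 3.29 SD below usual. Members on a raised chromosome were mostly raised with it. Relative to each gene's own median, members on the raised chromosome stood above the other members in 10 of the 11 columns, for example by 2.74 in MAL33 (5 members on XI), 2.68 in UME6 (5 on IX) and 2.50 in the column labelled ABF1 (10 on II). They stood 1.13 lower in the column labelled MCM1 (13 on XV).

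In the SWI/SNF set ribosomal protein genes were low, but unevenly so. With limma and Benjamini-Hochberg adjustment over the 5615 tested genes, 39 members fell against the strains outside every set and none rose, where an adjusted p under 0.05 counts as a call. In the same comparison 21.1% of all tested genes fell and 32.3% changed in either direction, so the 28.5% of members that fell was not far from the background. The median difference over all members was -0.93, against -0.07 over all tested genes. Calls fell on 27 of 81 large subunit genes (33.3%) and on 12 of 56 small subunit genes (21.4%).

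RPL4A, RPL4B and RPL3 fell by most. RPL4A scored -4.73 in SNF2, -3.79 in SNF5, -5.70 in SNF6, -3.39 in SWI3 and -1.86 in SNF11, and in the other strains its lowest, median and highest scores were -6.24, -1.07 and 1.40. All 5 strains lay below the median of the others, although the ranges overlapped. The difference was -2.74 ± 0.49 (SE, 5 strains; limma adjusted p = 1.34e-06). Here and below, SE and p use the spread pooled over all columns, mostly the other strains, and not that of the set alone. RPL4B scored -4.65 in SNF2, -4.46 in SNF5, -5.36 in SNF6, -3.11 in SWI3 and -0.85 in SNF11, against -6.58, -0.88 and 1.36 in the others, a difference of -2.68 ± 0.50 (limma adjusted p = 3.79e-06). RPL3 scored -4.31, -4.22, -5.15 and -3.95 in SNF2, SNF5, SNF6 and SWI3 and 0.50 in SNF11, a difference of -2.64 ± 0.51 (limma adjusted p = 6.40e-06). SNF11 stood above the other 4 strains for all 3 genes. The SD of RPL3 was 2.24 among the 5 strains and 1.05 in the strains outside every set.

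The member medians were -1.16 in SWI3, -1.37 in SNF5, -2.75 in SNF2, -1.85 in SNF6 and 0.73 in SNF11. Chromosome III was raised in SWI3, and without columns with a raised chromosome 31 members fell, where 998 of all 5615 tested genes fell. Without SNF11 62 members fell, without SNF2 21 and without SNF6 18, with 17 of the 39 calls being kept whichever single strain was left out. Of all 5615 tested genes 1448, 924 and 840 fell in these runs, in the same order. SWI3, SNF5, SNF2 and SNF6 are all among the columns with far low marker genes. With those columns removed SNF11 alone was left, with a median difference over members of 1.20. With the columns brought to 1 common distribution by quantile normalization, 1 member (RPS0B) was called. What part the marker genes and the wider score range of these columns had in the calls was not tested.

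In the SAGA set 13 members fell and none rose by limma, 9.49% of members, where 6.7% of all tested genes fell and 9.99% changed in either direction. The median difference over all members was -1.20, against -0.05 over all tested genes. RPL17A, a tunnel protein gene, scored -0.46 in ADA2, -3.50 in HFI1, -1.64, -4.80 and -1.94 in the columns labelled NGG1, SPT20 and SPT3, and -6.27, -0.59 and 2.62 at the lowest, median and highest of the others. The difference was -1.90 ± 0.57 (SE, 5 strains; limma adjusted p = 0.0176). RPS16B scored 1.19 in ADA2, -4.02 in HFI1, and -1.62, -4.38 and -1.65 in the columns labelled NGG1, SPT20 and SPT3, a difference of -1.87 ± 0.57 (limma adjusted p = 0.0184). Its SD was 2.24 among the 5 strains and 1.24 in the strains outside every set. RPL4B differed by -1.82 ± 0.50 (limma adjusted p = 0.0083), with HFI1 at -3.57 and SPT20 at -5.48 lowest. HFI1 and SPT20 were lowest for all 3, and ADA2 was highest.

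The 13 SAGA calls rest on those strains. Without SPT20 or without HFI1 no member was called, without SPT3 6 were, without NGG1 26, and without ADA2 66. HFI1, SPT20 and SPT3 had far low marker genes, and no member was called without such columns, where 1 of all tested genes was. In the columns labelled NGG1, SPT3 and SPT20 the deleted gene was among its highest scores. Without columns of that kind no member was called either, where 30 of all tested genes were.

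In the Mediator tail set 2 members rose by limma and none fell, 1.46% of members, where 1.94% of all tested genes rose, 2.17% fell and 4.11% changed in either direction. Over all members the median difference was 1.26, against -0.04 over all tested genes. RPL22A scored 3.25 in SIN4, 2.59 in GAL11, 0.53 in PGD1 and 0.77 in NUT1, and -6.69, -0.67 and 3.33 at the lowest, median and highest of the others, a difference of 2.35 ± 0.72 (SE, 4 strains; limma adjusted p = 0.0413). RPS20 scored 2.23, 2.20, 0.13 and -0.58 in the same strains, a difference of 2.07 ± 0.64 (limma adjusted p = 0.0421). Neither was called without SIN4 or without GAL11, where 0 and 33 of all 5615 tested genes rose, in that order. The member median was above 0 in all 4 strains, at 0.62 in SIN4, 1.81 in GAL11, 0.65 in PGD1 and 0.43 in NUT1. With the columns of far low marker genes removed from the other strains, 43 members rose, where 310 of all 5615 tested genes rose.

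No member was called by limma in the Mediator kinase set (median difference -0.38), the Rpd3L set (0.0007) or the set of TOD6, STB3 and DOT6 (-0.25). In these comparisons 0.0178%, 0.392% and 0.0178% of all tested genes were called in either direction (0.16% lower in the Rpd3L set), and no member had an unadjusted p under 0.05 in any of the 3. With quantile normalization 2 members had one in the kinase set and 1 in the repressor set, and none was called. The Rpd3L strains went apart, with member medians of -2.65 in SIN3, -1.24 in UME1, -0.49 in PHO23, 0.49 in the column labelled RPD3 and 1.97 in SDS3. The kinase strains were alike, at -0.88 in the column labelled SSN3, -0.74 in SRB8 and -0.72 in SSN2. Chromosome V was raised in SIN3 and XI in SRB8. Without columns with a raised chromosome the median difference was 0.58 in the Rpd3L set and -0.36 in the kinase set, with no member called.

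**Figure D5:**
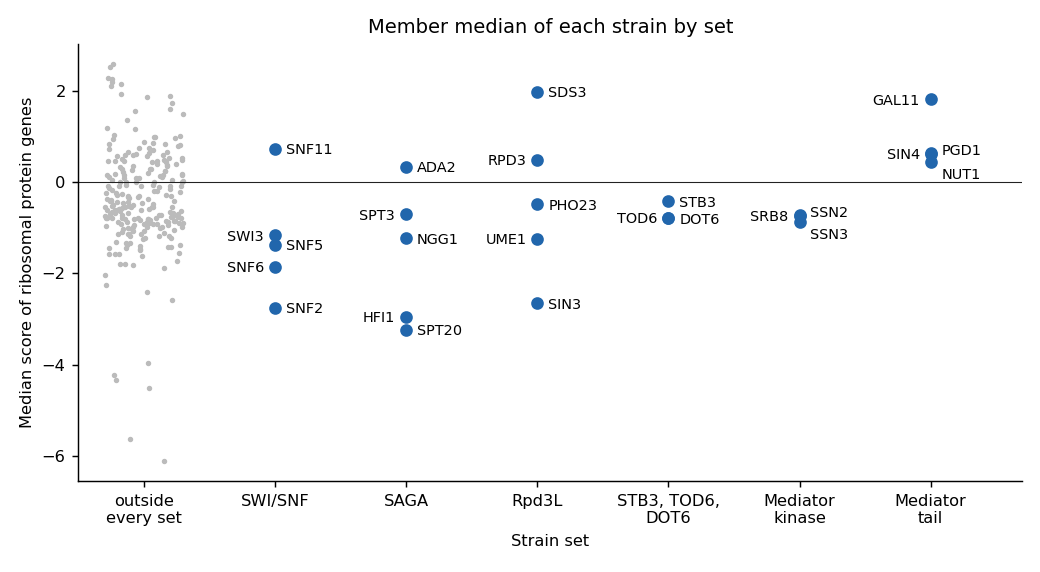
Median score of the ribosomal protein genes (y axis) in each strain of the 6 sets and in the strains outside every set (x axis, grey points). SNF11 at 0.73 lies apart from the other SWI/SNF strains, SPT20 and HFI1 are lowest in the SAGA set, and all 4 Mediator tail strains lie above 0.

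Genes that work with the ribosome were set beside the members by lists, and their counts in the SWI/SNF set stand against 21.1% of all tested genes that fell and 11.2% that rose. Of 32 translation factor genes 20 fell and 1 rose by limma in the SWI/SNF set, among them the elongation factor genes YEF3 (-3.37 ± 0.49) and EFT2 (-3.26 ± 0.50), the latter with a near-identical copy from which its feature may not be told apart. Of 12 genes for ribosome-associated proteins 6 fell, among them SSB2 (-3.41 ± 0.46), a chaperone of nascent chains, and ASC1 (-2.01 ± 0.53), a small subunit scaffold. Of 64 ribosome biogenesis genes 26 fell and 2 rose, with the processome gene UTP22 at -2.88 ± 0.45 and the nucleolar gene NSR1 at -2.58 ± 0.50. Median differences were -1.68, -1.17 and -0.68 for the 3 lists, against -0.07 over all genes.

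In 3 other lists calls went in both directions, or were few. Of 24 RNA polymerase I and III genes 4 rose and 3 fell, of 43 mitochondrial ribosomal protein genes 3 rose and 3 fell, and of 21 stress response genes 2 fell. Of 21 regulators of ribosomal protein genes 8 fell (38.1%, against 40.6% of the biogenesis genes) and 2 rose. UTP22, which is on both lists, changed by most, at -2.88 ± 0.45. FHL1, the gene of the forkhead activator of these promoters, was 1.46 ± 0.31 higher, and ESA1, the catalytic subunit gene of the NuA4 acetyltransferase, 1.49 ± 0.35 higher. SCH9, a kinase gene of the TOR pathway, was at -1.41 ± 0.28.

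In the SAGA set, where 6.7% of all tested genes fell and 3.29% rose, 5 of 32 translation factor genes, 4 of 12 ribosome-associated genes and 2 of 64 biogenesis genes fell by limma, with EGD2, a subunit gene of the nascent polypeptide-associated complex, at -1.79 ± 0.37. Of the 21 regulators and of the 21 stress genes 2 each fell, and none of the polymerase or mitochondrial ribosomal genes was called. In the Mediator tail set, where 2.17% of all tested genes fell and 1.94% rose, 4 of 32 translation factor genes fell, with EFT2 at -2.28 ± 0.56, 1 (CDC33, the cap-binding protein) rose by 1.69 ± 0.48, and 1 mitochondrial ribosomal gene, MRPL6, rose by 1.38 ± 0.37. None of the other 5 lists had a call there.

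Across all columns, which all lists share, the list medians tracked the member median to different degrees. Pearson r was 0.73 for ribosome-associated genes, 0.64 for translation factors, 0.49 for polymerase I and III genes, 0.47 for mitochondrial ribosomal genes and 0.23 for biogenesis genes, and it was -0.27 for stress genes and -0.24 for the regulators. In the RAP1 column, with members at -6.12, translation factors were at -2.07 and biogenesis genes at 0.60. In the SFP1 column, with members at -4.34, they were at -3.33 and -1.28. In ISW2, with members at 2.59, translation factors were at -0.44 and biogenesis genes at 0.04.

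Single genes outside the family were ranked by their likeness to the block. Over 5478 genes outside the family, the Pearson r with the member median over all columns had a 5th to 95th percentile of -0.40 to 0.55. It was 0.91 for EGD1, which encodes the partner of EGD2, 0.89 for SNU13, an RNA-binding protein related to ribosomal proteins, and 0.86 each for TMA19, a ribosome-associated protein, the uncharacterised YCR087C-A and CAF20, a regulator of the cap-binding complex. GSP1 (0.85), the Ran GTPase, the polymerase subunit genes RPA12 (0.85) and RPB8 (0.85), SUI1 (0.85), the start codon factor, and NOP10 (0.84) completed the first 10.

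Most unlike it were GUT2 (-0.67), the mitochondrial glycerol phosphate dehydrogenase, PDH1 (-0.64), DSS1 (-0.63), a subunit gene of the mitochondrial RNA degradosome, SNO1 (-0.63) and OSW1 (-0.60). Length went with likeness here as well. The 50 most alike genes had a median span of 416.5 bp, against 1299 bp for all compared. With the length trend removed 8 of the first 10 stayed in the first 10, and EGD1 led at 0.89.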

How the data were processed

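The authors' deposited value table of scores held 1 column for each of 268 deletions and 6419 features, 5655 of them named through the R64 gene table, which also gave spans (introns included). Its values, called scores, ran from -8.35 to 8.05. Their scale, centring, direction and normalization are not stated, and column medians of tested genes ran from -0.43 to 0.17. The direction, deletion over wild type, was taken from the dyes per the labels. Scores of a deleted gene in its own column were left out. The planned tests assumed log ratios. The members numbered 137 of 5615 tested genes. Genes with values in at least 80% of columns were tested on scores with limma 3.58.1 (R 4.3.3), 1 mean per strain set against 243 strains, and Benjamini-Hochberg adjustment, after a trial on simulated scores. SEs and p-values use the spread between strains with different deletions, pooled over the sets and the strains outside them. Correlations (pandas 2.3.3, SciPy 1.17.1) used all 268 columns (the paired values present), centred on their median and carry no p. The length trend was fitted with lowess (span 0.3, statsmodels 0.14.6). Members, sets and lists were chosen with earlier results of these data known. Named genes were the 3 largest calls per direction and set, the 3 lowest and highest members of the 5 extreme columns at each end, the extremes of SD, correlation and copy distance, and up to 4 called genes per list; others named were chosen after their values were seen.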

Additional observations from a re-analysis of the deposited data

Results flagged for a closer look

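Within sets of 4 or 5 strains, 16 groups of values were examined for a strain far from the others, and 2 gave one, where chance alone gives about 1 in 20. The median score of the ribosomal protein genes in GAL11, 1.81, lay far above the 0.43 to 0.65 of the other 3 Mediator tail strains. RPL3 in SNF11, at 0.50, lay far above the -5.15 to -3.95 of the other 4 SWI/SNF strains.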

How the results depend on the processing

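No paired analysis was possible because each deletion had 1 column and the strains of a set lack different genes. Counts of members called moved as follows. In the SWI/SNF set (39) they were 1 with quantile normalization, where 514 of all 5615 tested genes were called. With 1 strain left out they were 18 to 62, where 1307 to 2117 were. Without marker columns 1 SWI/SNF strain was left, with a median difference over members of 1.20. In the SAGA set (13) they were 0 with quantile normalization, where 51 of all tested genes were called. They were 0 without marker columns (2 strains left) and 0 without columns whose own gene is high (2 left), where 1 and 30 were. Without columns of 6 digits they were 46, where 712 of all tested genes were called. With the length trend removed they were 31 (29 lower and 2 higher), where 677 were. With 1 strain left out they were 0 to 66, where 35 to 897 were. In the Mediator tail set (2) they were 0 with quantile normalization and 0 with the length trend removed, where 9 and 57 of all tested genes were called. They were 7 with genes complete in every column, where 287 of 3783 were. Without columns of 6 digits they were 9 and without marker columns 43, where 375 and 627 were. With 1 strain left out they were 0 to 7, where 0 to 435 were. The other 3 sets had 0 under every alternative run. Without marker columns the differences of RPL3 (1.20) and RPL4B (0.051) in SWI/SNF and of RPS16B (0.11) in SAGA turned positive, with no call. Quantile normalization drew in the lowest member medians, to -2.19 in RAP1, -1.97 in GCR1, -1.76 in CST6, -1.90 in SFP1, -1.81 in HSF1 and -2.08 in SPT10. It gave large minus small differences of -0.37 in SWI3, -0.29 in SNF5, -0.19 in SPT20, 0.19 in MCM1 and 0.56 in SIN4. Means gave -0.33 in SWI3, -0.31 in SNF5 and 0.20 in SIN4, and complete genes alone -0.40 in SWI3. By Spearman correlation 6 of the 10 genes most like the members were shared. No direction changed among the named member medians and subunit differences. Depth, dye balance and probe specificity could not be assessed from these values.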
